A study of Mus musculus with 10 samples.

Results

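Runx1, Bach2, Hoxb4 and Cdk6 are 4 genes known from the regulation of blood cell formation, and they held 5 of the 1320 H3K27ac regions that the authors' test separated between MDM and YSM brain macrophages. A region was counted for a gene when its midpoint lay inside the gene, or when that gene had the nearest end of any protein-coding gene within 100 kb. Of the 5 regions, 4 came from the MDM list of 428 (2 at Hoxb4, 1 at Bach2, 1 at Cdk6) and 1 from the YSM list of 892 (at Runx1). The genes were picked because they have listed regions, so their lists and positions describe them and were not tested.

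CUT&Tag, in which an antibody steers a transposase to chromatin that carries a given histone mark, was done on sorted macrophages of the mouse brain parenchyma, with 4 libraries for YSM and 4 for MDM. All of these libraries share the genotype Ms4a3Cre:R26-tdTomato and the treatment DR-3x, an entry the labels leave unexplained, and neither age nor sex of the mice is stated. As background, Cre under Ms4a3 is active in granulocyte-monocyte progenitors and leaves a lasting red reporter in their descendants, so the model rests on how completely that driver labels monocytes. The series title spells out MDM as monocyte-derived macrophages, YSM is spelled out nowhere in the labels, and it is not said whether each library had its own mouse.

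The mark itself, acetylation of lysine 27 on histone H3, lies on active promoters and enhancers. RUNX1 is a DNA-binding factor needed for the first definitive blood stem cells to form and later for megakaryocyte, lymphoid and myeloid maturation. HOXB4 is a homeodomain factor that enlarges the stem cell pool when it is supplied to cultured progenitors, BACH2 is a repressor that pairs with small MAF proteins and holds back effector differentiation of lymphocytes, and CDK6 is the kinase that joins D-type cyclins to drive cells out of G1 and that governs when blood stem cells leave quiescence. H3K27ac reports on chromatin and not on the amount of any of these proteins.

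The deposited lists hold a position per region and no level, fold change or p-value, so neither the values of single libraries nor their spread can be given. Read depth is unknown. A list named for a group was taken as the regions with more H3K27ac in that group, a direction the files do not state. A gene without a listed region may carry the mark at the same level in both groups, at a level the test could not separate, or not at all. Each of the 5 regions is 2001 bp long, as is every region of both lists. Region edges, and the gaps and coverage given from them, thus follow a fixed width and not the measured extent of the mark. All 5 have the deposited score of 1 that 421 MDM and 871 YSM regions share.

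Under the same counting rule, 1.06% of 21887 protein-coding genes (231 genes) had an MDM region, 2.16% (472 genes) had a YSM region, and 3.19% (698 genes) had a region of either list. Regions of both lists were found at 5 of these 698 genes, and 0 of the 4 genes had them. Whether 5 differs from what lists of this size would share was not tested. The 3 genes with MDM regions and the 1 gene with a YSM region were selected by this very measure, so nothing is read from their number against that background.

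Sequences are shown for the places that the results on Hoxb4 and Runx1 turn on, all from RefSeq (GRCm38.p6, the assembly that is also called mm10). The 250 bases before the Hoxb4 start (chr11:96318017-96318266, plus strand) are shown because an MDM region covers them completely. The 100 bases before the distal Runx1 start (chr16:92826075-92826174, minus strand) and before its proximal start (chr16:92697330-92697429, minus strand) are shown because the YSM region in Runx1 lies beyond both. Capitals mark CG pairs, the sites of DNA methylation.
Hoxb4 start: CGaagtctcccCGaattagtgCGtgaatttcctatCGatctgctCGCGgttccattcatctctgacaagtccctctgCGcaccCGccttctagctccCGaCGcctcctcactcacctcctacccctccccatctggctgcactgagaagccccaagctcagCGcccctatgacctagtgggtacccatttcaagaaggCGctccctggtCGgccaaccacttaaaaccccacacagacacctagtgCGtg
Runx1 distal start: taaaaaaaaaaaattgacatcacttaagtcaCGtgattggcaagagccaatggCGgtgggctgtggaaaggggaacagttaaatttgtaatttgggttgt
Runx1 proximal start: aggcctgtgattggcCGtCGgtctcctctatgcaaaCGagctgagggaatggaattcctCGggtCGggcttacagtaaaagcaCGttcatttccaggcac

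Hoxb4 was the only one of the 4 genes with a listed region over a RefSeq transcription start. The MDM region chr11:96317764-96319764 began 0.503 kb before the start of Hoxb4 (chr11:96318267-96321638, plus strand, RefSeq gene 15412) and ended 1.50 kb after it. It covered 44.4% of this gene, which is 3.37 kb long. Its midpoint lay 0.497 kb inside the gene, and 7.71% of the MDM regions (33 of 428) had a midpoint closer to a gene end. Regions that hold a protein-coding start were a minority of both lists, 40 of 428 MDM regions (9.35%) and 76 of 892 YSM regions (8.52%), in a table of starts that covers 79.9% of protein-coding genes.

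The second MDM region of Hoxb4, chr11:96313959-96315959, lay upstream of the gene. It ended 2.31 kb before the Hoxb4 start, and a gap of 1.80 kb separated it from the region over that start. The 2 midpoints were 3.81 kb apart, against a median of 24.4 kb from an MDM region to the nearest other of its list, and 63.9% of MDM regions had a more distant neighbour. Both regions also lay inside Hoxb3 (chr11:96307101-96347930), whose annotated span encloses Hoxb4. The upstream region was 7.86 kb from the nearest end of Hoxb3, so Hoxb4 is the nearest gene by its end, while by position alone Hoxb3 has an equal claim to both regions.

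The gap between both regions holds Mir10a, a microRNA gene that sits in the Hoxb cluster and is transcribed in the same direction. Its hairpin (chr11:96317165-96317274, plus strand) began 1.21 kb after the end of the upstream region and ended 0.489 kb before the region over the Hoxb4 start. A microRNA hairpin lay within 5 kb of 4 of 428 MDM regions (0.935%) and 5 of 892 YSM regions (0.561%), and the 2 Hoxb4 regions are among those 4. At the other 3 genes the nearest hairpin was 736 kb or more away. Both mature forms made from Mir10a are shown, followed by miR-10b-5p from another gene for comparison of the seed, bases 2 to 8, which is in capitals.
miR-10a-5p: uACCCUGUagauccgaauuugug
miR-10a-3p: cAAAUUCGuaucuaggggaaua
miR-10b-5p: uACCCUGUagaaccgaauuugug

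Among the mature mouse microRNAs in the RefSeq table, 1738 in all, miR-10a-5p shares its seed with miR-10b-5p only, whose gene lies on chromosome 2. CUT&Tag does not measure microRNA, so no level of either is given.

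**Figure D1:**
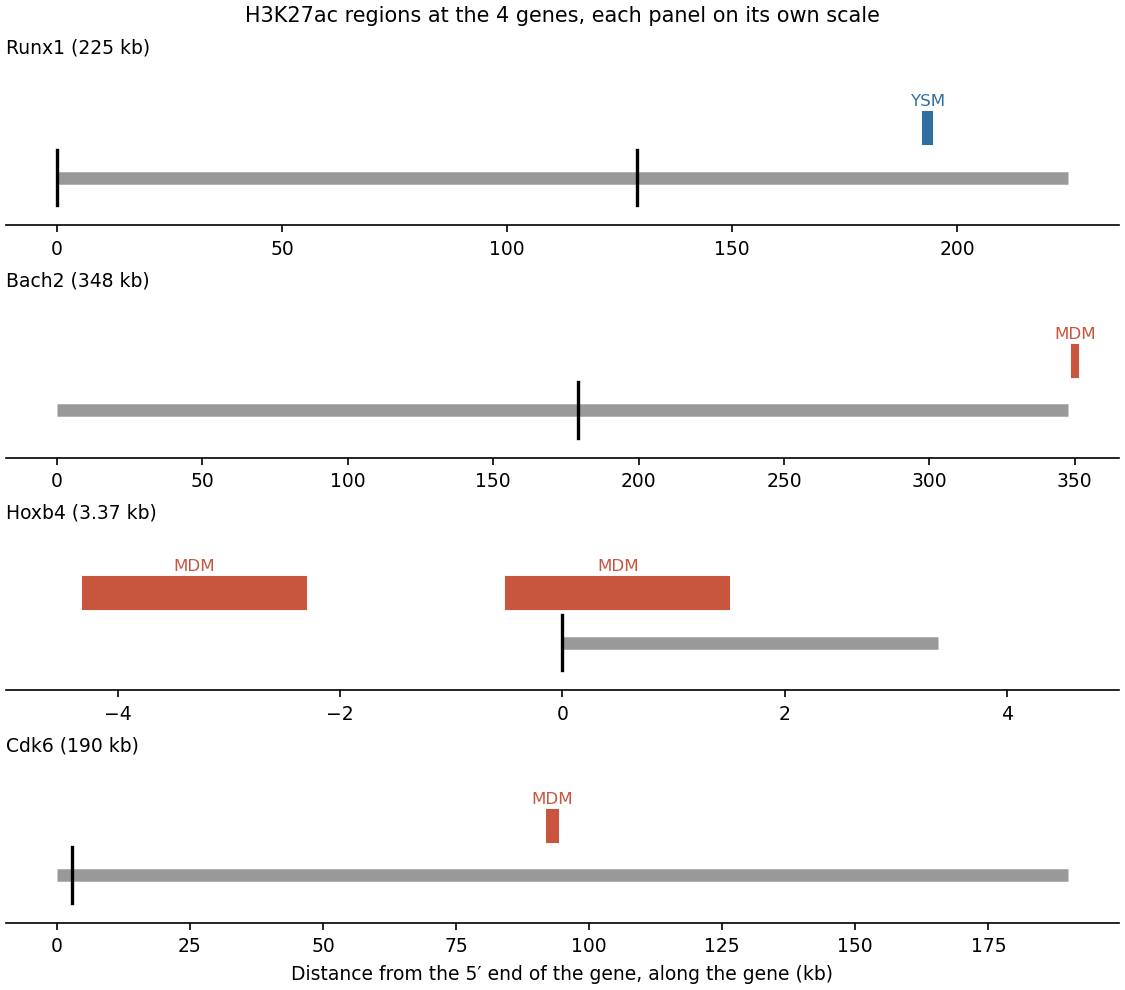
Map of the 5 listed regions along Runx1, Bach2, Hoxb4 and Cdk6, with distance in kb from the 5′ end of each gene on the horizontal axis and a separate scale in each panel. Grey bars are the annotated genes, black ticks the transcription starts in the RefSeq table, and coloured boxes the regions (red MDM, blue YSM, to scale). Only at Hoxb4 does a region sit over a start; the Runx1 and Cdk6 regions are deep inside the genes and the Bach2 region lies past the 3′ end.

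Outside Hoxb4 and Hoxb3, the Hoxb cluster had no listed region of either group. The cluster holds 10 protein-coding genes over 174 kb, from Hoxb13 to Hoxb1, and its only regions were the 2 MDM regions described. They overlapped Hoxb4 and Hoxb3, and the other 8 genes (Hoxb1, Hoxb2, Hoxb5, Hoxb6, Hoxb7, Hoxb8, Hoxb9 and Hoxb13) had 0. These genes encode homeodomain factors that set position along the body axis, and several are active in blood progenitors. Nearest among them was Hoxb5, 7.84 kb from the edge of the upstream region, followed by Hoxb6 at 12.4 kb, whereas Hoxb2 lay 31.9 kb and Hoxb1 46.0 kb from the region over the Hoxb4 start. Hoxb13, at the far end, was 117 kb away. The antisense RNA Hoxb5os was 7.05 kb and Hoxb3os 23.3 kb from a region. Outside the cluster the next listed region on chromosome 11 was an MDM region 6208 kb below it and a YSM region 5395 kb above it. Of the 29 genes in the other Hox clusters, 0 had a region of either list, against 3.19% of all protein-coding genes. The other 8 Hoxb genes are each under 10 kb long. Among all genes of up to 10 kb, 0.29% had an MDM region and 0.379% a YSM region, so nothing is read from these absences.

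**Figure D2:**
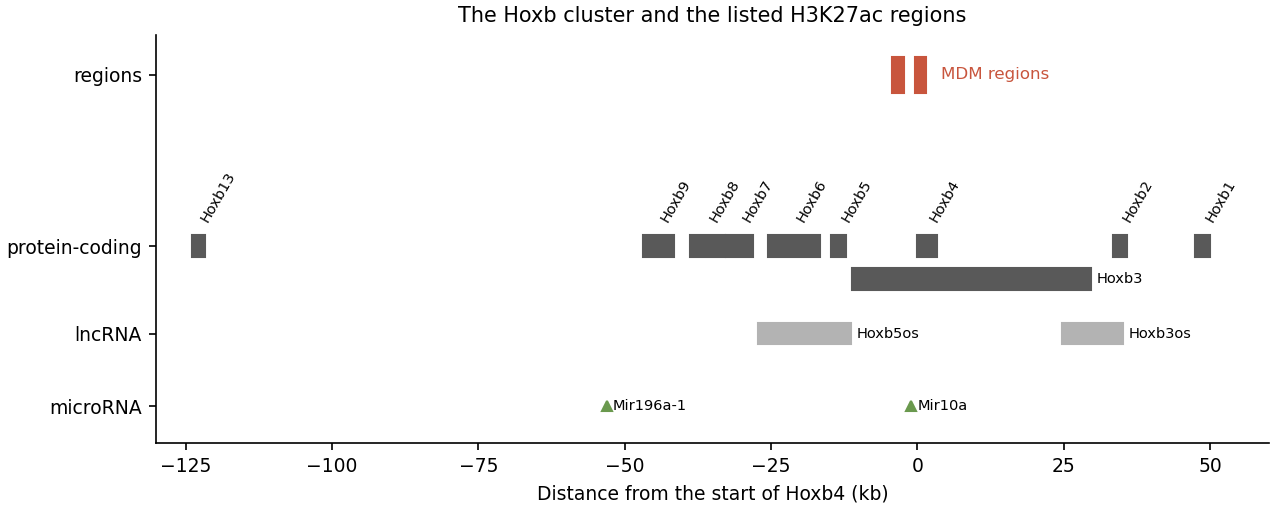
Map of the Hoxb cluster, with distance from the start of Hoxb4 in kb on the horizontal axis; bars are genes to scale, triangles mark microRNA hairpins, and red boxes are the MDM regions. Both regions fall on Hoxb4 and the part of Hoxb3 before it, one on each side of Mir10a, and the other 8 protein-coding genes have none.

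At Bach2 the MDM region lay past the end of the gene and not over it. Bach2 (chr4:32238413-32586109, plus strand, RefSeq gene 12014) spans 348 kb, and the region chr4:32587351-32589351 had its midpoint 2.24 kb downstream of the 3′ end. The region was 171 kb beyond the start that the table gives for this gene (chr4:32417435), which itself lies inside the annotated span. Nearest among the protein-coding starts in the table was that of Gja10, a connexin gene, 14.0 kb away, so a count by starts would give this region to Gja10. Regions within 5 kb downstream of a gene made up 5 of 239 MDM regions (2.09%) and 19 of 537 YSM regions (3.54%) among those assigned to a gene of known strand. The Bach2 region stood alone in its list: the next MDM region on chromosome 4 was 3.64 Mb away, near Epha7, and 18.0% of MDM regions had a more distant neighbour. A YSM region near Rngtt, which encodes the mRNA capping enzyme, was closer at 0.909 Mb.

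At Cdk6 the MDM region lay in the middle of the gene. Cdk6 (chr5:3341004-3531008, plus strand, RefSeq gene 12571) spans 190 kb. The region chr5:3433080-3435080 had its midpoint 93.1 kb from the 5′ end and 96.9 kb from the 3′ end, or 49.0% along the gene, and 90.2 kb downstream of the RefSeq start at chr5:3343893. It covered 1.05% of the gene. In the MDM list 67.8% of regions were closer to a gene end. The gene beyond the 3′ end, Fam133b, began 110 kb from the midpoint and had no listed region. The next MDM region was 1.10 Mb away, and the nearest YSM region, 1.93 Mb away, was assigned to Cdk14, which encodes another kinase of the same family.

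Runx1 was the only one of the 4 genes with a YSM region, and that region was far from both of its starts. Runx1 (chr16:92601466-92826074, minus strand, RefSeq gene 12394) spans 225 kb and is transcribed from a distal start at chr16:92826074 and a proximal start at chr16:92697329. As background, both promoters are used in a stage-dependent order in developing blood, and the best studied blood enhancer of the gene lies between them. The region chr16:92631740-92633740 had its midpoint 193 kb downstream of the distal and 64.6 kb downstream of the proximal start, outside the interval between them. It lay 86.1% along the gene, 31.3 kb before the 3′ end. In the YSM list 54.5% of regions were closer to a gene end. The closest MDM region was 11.2 Mb away, a distance exceeded by 9.88% of YSM regions, and the nearest YSM region, near Tiam1, was 2.80 Mb away, a gap exceeded by 9.32% of YSM regions (median 13.5 kb). Exons, introns and untranslated parts are not separated in the gene table, so for Runx1 and Cdk6 no more than a place inside the gene is given.

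**Figure D3:**
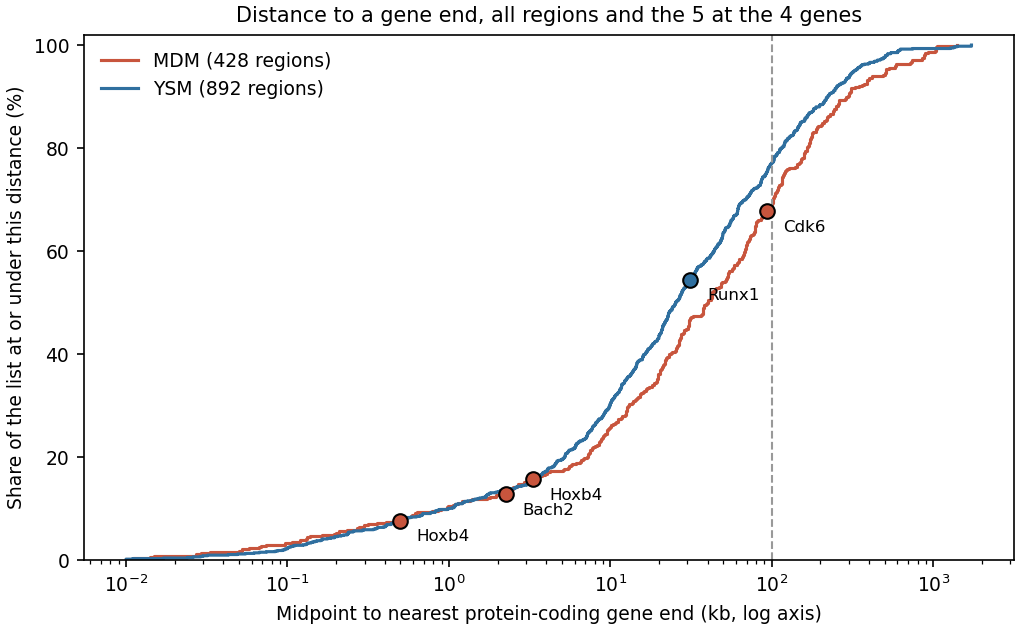
Cumulative share of each list (percent, vertical axis) against the distance between region midpoint and closest protein-coding gene end (kb, logarithmic horizontal axis), for 428 MDM regions in red and 892 YSM regions in blue. Circles mark the 5 regions at the 4 genes and the dashed line the 100 kb limit; the Hoxb4 and Bach2 regions lie in the lower part of the MDM curve, at 7.71% to 15.7%, and the Cdk6 region at 67.8%.

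Apart from the window at the Hoxb4 start, which lies inside an MDM region, no region sequence was used here. The annotated starts could be compared. In windows from 250 bases before to 50 after the start, the proximal Runx1 start had 35 CG pairs and a GC content of 69.0%, and the Cdk6 start had 27 and 66.7%. The Hoxb4 start, the one under an MDM region, had 14 CG pairs and 58.0% GC. At the Bach2 start, which lies inside the annotated gene, there were 7 CG pairs and 50.3% GC, and at the distal Runx1 start 2 and 45.0%. The beginning of the annotated Bach2 span is not among the RefSeq starts used, so neither its composition nor its motifs were examined. The median over 32851 RefSeq windows was 7 CG pairs and 52.7% GC, so Hoxb4 held more CG pairs than 63.7% of windows, the proximal Runx1 start more than 93.0% and the distal one more than 14.1%. The difference between the Runx1 starts can be read from the printed stretches, with 6 CG pairs in the 100 bases before the proximal start and 2 before the distal one.

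From 100 bases before to 50 after each of these 5 starts, 8 motifs were searched on both strands. RUNX was searched as TGTGGT, the ETS factor PU.1 as GAGGAAGT, AP-1 as TGANTCA and the GATA family as AGATAA. C/EBP factors were searched as TTGCNNAA, homeodomain factors as TAATTA and the E-box as CAGCTG, and the last motif was the MAF recognition element, which BACH and MAF proteins share and which contains the AP-1 letters. The only matches were 2 of RUNX at the distal Runx1 start, on the strand opposite to the gene. They stand in this stretch just after the start (chr16:92826031-92826048, minus strand), with the matches in capitals.
Runx1, after the distal start: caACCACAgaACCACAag

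A RUNX match was present in 8.60% of all windows of this length, and 2 or more in 0.584%. The window at Hoxb4 held none of the 8 motifs, nor did its full 250 bases before the start. Among all windows of the shorter length, the other motifs were present in 0.253% (MAF recognition element) to 9.4% (E-box). In windows from 250 bases before to 50 after, the shares of the 8 motifs ran from 0.423% to 16.8%. Each motif is thus absent from most windows, and nothing is read from its absence at Hoxb4. A match is a run of letters and not a measured binding site, and the YSM region of Runx1 does not reach this start.

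Gene length differed widely among the 4 genes, and long genes more often had a listed region. Of 990 protein-coding genes over 200 kb, among them Runx1 and Bach2, 5.86% had an MDM region and 10.3% a YSM region. In the range of Cdk6, 100 to 200 kb, the shares were 3.47% and 6.12% of 1439 genes. Among 7926 genes of up to 10 kb, the range of Hoxb4, they were 0.29% (23 genes) and 0.379% (30 genes). Only 3.85% of protein-coding genes are longer than Runx1, 2.02% longer than Bach2 and 4.84% longer than Cdk6, against 83.0% longer than Hoxb4. What part length has in these listings was not tested.

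**Figure D4:**
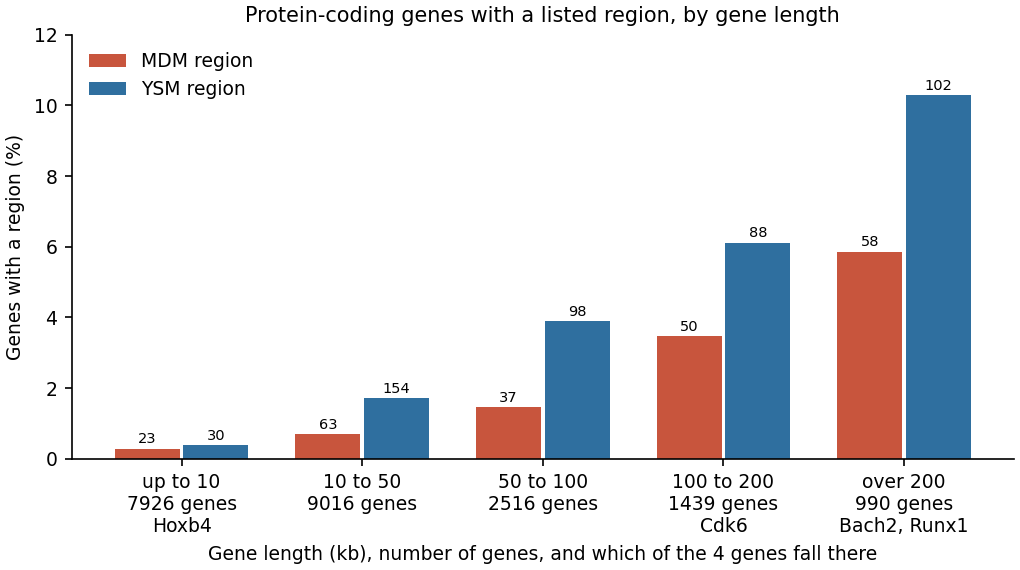
Share of protein-coding genes with an MDM region (red) or a YSM region (blue), in percent on the vertical axis, in 5 ranges of gene length; the number of genes with a region stands over each bar. The share goes from 0.29% to 5.86% for MDM and from 0.379% to 10.3% for YSM, and Hoxb4 is in the range with the lowest shares.

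Relatives and partners of the 4 genes and other blood regulators were described with 9 lists, 164 genes in all. Among these are the 10 Hoxb genes, 29 other Hox genes and 9 Hox cofactors, taken as families and not for a role in blood. Without the 4 genes themselves, 1 of 160 had an MDM region (0.625%, against 1.06% of all protein-coding genes) and 4 of 160 had a YSM region (2.50%, against 2.16%), shares near the background of each list. The MDM gene was Hoxb3, through the same regions as Hoxb4. In the RUNX list of 7 genes, Runx1t1, a co-repressor gene known as the fusion partner of RUNX1 in leukaemia, had 3 YSM regions. Of these, 2 were intragenic, at 0.854 and 13.9 kb from a gene end, and the third was 39.4 kb outside. The family members Runx2 and Runx3 and the DNA-binding partner Cbfb had none. In the list of BACH, MAF and NFE2 factors, 10 of 11 genes had none, Bach1 included.

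In the G1 list of 21 genes, Cdkn2a, which encodes the CDK4 and CDK6 inhibitor p16 and the p53 activator ARF, had 1 YSM region 3.71 kb downstream (chr4:89269763-89271763). Cdk4, Cdk2 and the D-type cyclin genes had none. Of 30 stem and progenitor transcription factors, Etv6, an ETS repressor needed for adult blood stem cells, had 1 YSM region inside the gene (chr6:134181724-134183724), and 29, among them Tal1, Gata2, Myb and Mecom, had none. No region of either list was assigned to the 33 myeloid and lymphoid factors, such as Spi1, Cebpa and Irf8, or to the 14 cytokine receptor genes, such as Kit, Flt3 and Csf1r. Of all protein-coding genes 3.19% had a region of either list, so nothing is read from absences in lists of this size.

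Defining markers were checked on the same lists, which show differences only and cannot show that a cell type is present. Of 8 microglia markers, Sall1 had YSM regions and 7 had none. No listed region was found at 5 common macrophage, 7 monocyte-derived, 4 stem and progenitor, 4 neutrophil, 5 B cell, 3 T cell or 3 mast cell markers. With 3.19% of all protein-coding genes having a region of either list, nothing is read from absences in sets this small. Among markers of other brain cells, 1 of 2 for neurons (Snap25) and 1 of 2 for oligodendrocytes (Mbp) had YSM regions, against 2.16% of all protein-coding genes, while 0 of 2 for astrocytes and 0 of 2 for endothelial cells had a region. Their part in the results on the 4 genes was not tested.

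Other genes with the same number of regions per list and inside the gene were ranked by how close their nearest distance to a gene end was, a likeness over 2 lists that carries no more than position. Hoxb4 shared its counts with 8 genes, led by Mgst1, with its nearest region at 0.207 kb, and Trat1 at 1.73 kb. Bach2 shared them with 60 genes, led by Gm44805 at 2.49 kb and Tmprss5 at 2.51 kb. Cdk6 shared them with 89 genes, led by Trabd2b at 95.2 kb and Foxp1 at 87.4 kb, and Runx1 with 211, led by Ccdc57 at 30.9 kb and Synpo at 30.8 kb. Having 1 region was the most frequent count, held by 155 of 231 MDM genes and 307 of 472 YSM genes, whereas 52 MDM genes had 2 as Hoxb4 did.

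No other region came near the limits of the rule. The next listed region outside Cdk6 was an MDM region 999.5 kb from the gene, that outside Bach2 a YSM region 911 kb away, and those outside Runx1 and Hoxb4 YSM regions 2770 kb and 5442 kb away. Of the regions counted, the one closest to the 100 kb limit was that of Cdk6, at 93.1 kb from a gene end, and it also lies inside the gene.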

How the data were processed

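H3K27ac CUT&Tag libraries (4 YSM, 4 MDM) entered through 2 region lists deposited by the authors after a test between the groups; 2 other libraries of the series, named for H3K27me3, were not analysed here. Per the submitters' processing notes the build was mm10, and HOMER, Picard, Bowtie2 2.2.5 and Trimmomatic 0.39 were used, in roles that are not stated. Neither the threshold of the test nor the making of the lists is stated in the sources used here. The score in the deposited lists is a whole number of unstated meaning and was used only for a stricter list.

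Positions were shifted to count from 1. Regions were assigned with Python 3.11.15, pandas 2.3.3 and NumPy 2.4.6 to 21887 protein-coding genes of a RefSeq table (GRCm38.p6); the assignment was tested on simulated data. Strands and starts came from the RefSeq promoter table. The genes named are the 4 members, the Hoxb cluster, members of the 9 lists with a region (1 of which is counted but not reported here), flanking genes and the 2 genes most alike per member. List genes without a region and cell type markers were named as examples after their values were seen. The 4 genes and the lists were chosen with earlier results of these data known, and no test was run.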

Additional observations from a re-analysis of the deposited data

How the results depend on the processing

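No paired analysis was possible because the deposited lists give positions without measurements for single libraries. Leaving out a library was likewise not possible. The 4 MDM regions and 1 YSM region at the 4 genes were counted under 8 alternatives. With gene ends within 10 or 500 kb, or distances from region edges, these counts were 4 and 1. The MDM count was 3 with genes of all types, where the upstream Hoxb4 region goes to Mir10a, 3 with nearest gene bodies, where it goes to Hoxb3, 3 with nearest starts, where the Bach2 region goes to Gja10, and 3 with regions within 5 kb joined, which makes the Hoxb4 pair 1. In a stricter list, with a score above the lowest, 28 of 1320 regions remained, and the counts of MDM regions, YSM regions, Hoxb genes, and regulator genes with an MDM or a YSM region were 0 each, because the 5 regions have the lowest score. Under the other 7 alternatives, 2 Hoxb genes and 4 regulator genes had an MDM region, and 5 or 6 regulator genes a YSM region. The count of 4 does not always stand for the same genes, since with nearest starts Bach2 had 0 MDM regions. Motif matches numbered 2 in either window. Depth is unknown, so what it limits cannot be given.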
